A study of Mus musculus with 2 samples.

Results

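Contractile genes make up the working machinery of the smooth muscle cell, and the transcripts of 10 of them were measured in mouse colon. These were Acta2, Actg2, Myh11, Tagln, Cnn1, Des, Mylk, Smtn, Synpo2 and Lmod1, chosen by name among 27874 gene symbols, and all 10 were measured. RNA came from the lamina propria of the colon, which is the connective tissue beneath the epithelium, of C57BL/6J mice. There were 2 libraries, both poly(A)-selected: 1 of the genotype labelled Control and 1 of the genotype labelled K14/hyal1. The labels do not spell out the second name; K14 is the usual short form of keratin 14, whose promoter is active in basal cells of stratified epithelia such as skin, and Hyal1 is a hyaluronidase. By its title the study asks how inflammation passes from one epithelium to another by way of stromal fibroblasts and hyaluronan. Age, sex and the number of animals per library were not given in the sources used here. With 1 library per genotype no difference below has a replicate check or a test: each is a difference between 2 libraries and cannot be told apart from a difference between animals or dissections.

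Smooth muscle shortens when calcium, bound to calmodulin, activates myosin light chain kinase, which phosphorylates the regulatory light chain of myosin and lets the myosin heads pull on actin filaments. The filaments are anchored at dense bodies and dense plaques, and desmin filaments link these anchors into a network. Most genes of this machinery are switched on by serum response factor (SRF) with its partners of the myocardin family, which act at a short DNA element called the CArG box. In the colon the main stores of such cells are the muscularis externa, the thin muscularis mucosae at the base of the lamina propria, and the walls of vessels.

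Sequence bears on whether the 2 actin members can be told apart at all. The coding sequences of Acta2, the alpha actin first described in vascular smooth muscle, and Actg2, the gamma actin of enteric smooth muscle, were 84.2% identical over 1134 and 1131 bases (GENCODE M21, mm10). A stretch of 90 coding bases near the start, from base 13 of Acta2 and base 10 of Actg2, shows how the differences are spread. Capitals mark the 15 bases that differ between the pair.
Acta2: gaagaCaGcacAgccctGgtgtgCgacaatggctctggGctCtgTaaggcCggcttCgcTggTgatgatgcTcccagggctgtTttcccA
Actg2: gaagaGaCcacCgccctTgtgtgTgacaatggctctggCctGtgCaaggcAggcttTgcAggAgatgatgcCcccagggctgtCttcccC
The longest run shared by both coding sequences was 29 bases, and 0 of 1085 windows of 50 bases in Acta2 were found in Actg2. Against the other actins, Acta2 shared 7 such windows with the cytoplasmic gamma actin Actg1, with a longest run of 56 bases, and none with Actb, Acta1 or Actc1. Actg2 shared none with any of the other actins. The libraries were read at a length that the sources used here do not give.

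The contractile genes were abundant in both libraries and differed little between them. Levels are given in CPM, which are reads scaled to a library total of 1000000, and brackets hold exact 95% intervals, which cover counting error alone. By estimate, the library total was 61106723 reads for Control and 29021024 for K14/hyal1. Of these, 25446914 reads stood behind the Control values and 13813285 behind those of K14/hyal1. A level of 3 reads, taken as the detection floor, came to 0.0491 CPM in the first library and 0.103 CPM in the second. The summed level of the 10 genes was 3551 CPM in the Control library and 4046 CPM in the other, which is 0.853% and 0.850% of all values in the table. The ratio of these sums was 1.14 (1.13 to 1.15). Over all symbols the values added up to 416434 (Control) and 475975 (K14/hyal1), below 1000000 in both, and their ratio was also 1.14. The members as a sum were thus higher only by the factor that held for the whole table. In bulk tissue, more cells of a type and more RNA per cell cannot be told apart.

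The 5 genes of the actin filament and its coat were all at a higher level in the K14/hyal1 library as the authors scaled it, though Tagln and Cnn1 were lower there once the libraries were scaled to the median gene. Acta2 (chr19:34241090-34255590, minus strand, 9 exons, coordinates from GENCODE M21 on mm10) had a level of 412 CPM in Control (407 to 418) and of 594 CPM in K14/hyal1 (585 to 603). The ratio of K14/hyal1 to Control was 1.44 (1.41 to 1.47). Actg2 (chr6:83512905-83536265, minus strand, 9 exons) had 214 CPM (210 to 218) and 319 CPM (313 to 326), a ratio of 1.49 (1.45 to 1.53). Both smooth muscle actins were therefore higher in the K14/hyal1 library by a similar factor, and the Actg2 to Acta2 ratio of CPM was 0.519 in Control and 0.538 in K14/hyal1. Tagln (chr9:45929619-45936058, minus strand, 5 exons), which encodes the actin-binding protein transgelin, had 336 CPM (331 to 340) and 385 CPM (378 to 393), a ratio of 1.15 (1.12 to 1.18). Cnn1 (chr9:22099216-22109630, plus strand, 7 exons), which encodes calponin 1, an inhibitor of the actin-activated myosin ATPase, had 177 CPM (173 to 180) and 201 CPM (196 to 206), a ratio of 1.14 (1.10 to 1.17). Lmod1 (chr1:135324807-135368065, plus strand, 3 exons), whose product leiomodin 1 nucleates actin filaments, had 39.1 CPM (37.6 to 40.7) and 51.7 CPM (49.1 to 54.3), a ratio of 1.32 (1.24 to 1.41). Tagln and Cnn1 thus differed less than the actins and Lmod1.

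The motor gene was nearly level between the libraries and its kinase was lower in K14/hyal1. Myh11 (chr16:14194535-14291372, minus strand, 41 exons), the smooth muscle myosin heavy chain, had the highest CPM of the 10 genes. Its level was 1286 CPM in Control (1277 to 1295) and 1328 CPM in K14/hyal1 (1315 to 1341). Its ratio was 1.03 (1.02 to 1.05). Mylk (chr16:34745210-35002420, plus strand, 32 exons), the myosin light chain kinase, was the only member at a lower level in K14/hyal1, with 431 CPM (426 to 436) and 366 CPM (359 to 373), a ratio of 0.849 (0.830 to 0.868). Relative to Myh11 within the same library, Acta2 was at 0.321 in Control and 0.448 in K14/hyal1, a 1.40-fold difference, while Mylk was at 0.335 and 0.276. These ratios do not depend on how the libraries were scaled, so actin, myosin and kinase transcripts were not in the same proportion in both libraries. As a share of the summed 10 genes, Acta2 made up 11.6% in Control and 14.7% in K14/hyal1, Myh11 36.2% and 32.8%, and Mylk 12.1% and 9.04%. Among all symbols ordered by CPM, Myh11 held place 15 in Control and 19 in K14/hyal1, and Acta2 place 69 and 40.

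The anchor and cytoskeleton genes were uneven. Des (chr1:75360329-75368579, plus strand, 9 exons), which encodes the muscle intermediate filament protein desmin, had 364 CPM (359 to 368) in Control and 419 CPM (412 to 427) in K14/hyal1, a ratio of 1.15 (1.13 to 1.18). Synpo2 (chr3:123076519-123236149, minus strand, 4 exons), which encodes the actin-bundling protein synaptopodin 2 (myopodin), had 231 CPM (228 to 235) and 319 CPM (312 to 325), a ratio of 1.38 (1.34 to 1.41). Smtn (chr11:3517523-3540612, minus strand, 22 exons), whose product smoothelin is found with actin filaments of contractile smooth muscle, had 61.0 CPM (59.0 to 63.0) and 62.9 CPM (60.0 to 65.8). The Smtn ratio of 1.03 (0.975 to 1.09) was the only one of the 10 whose interval held 1.

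**Figure D1:**
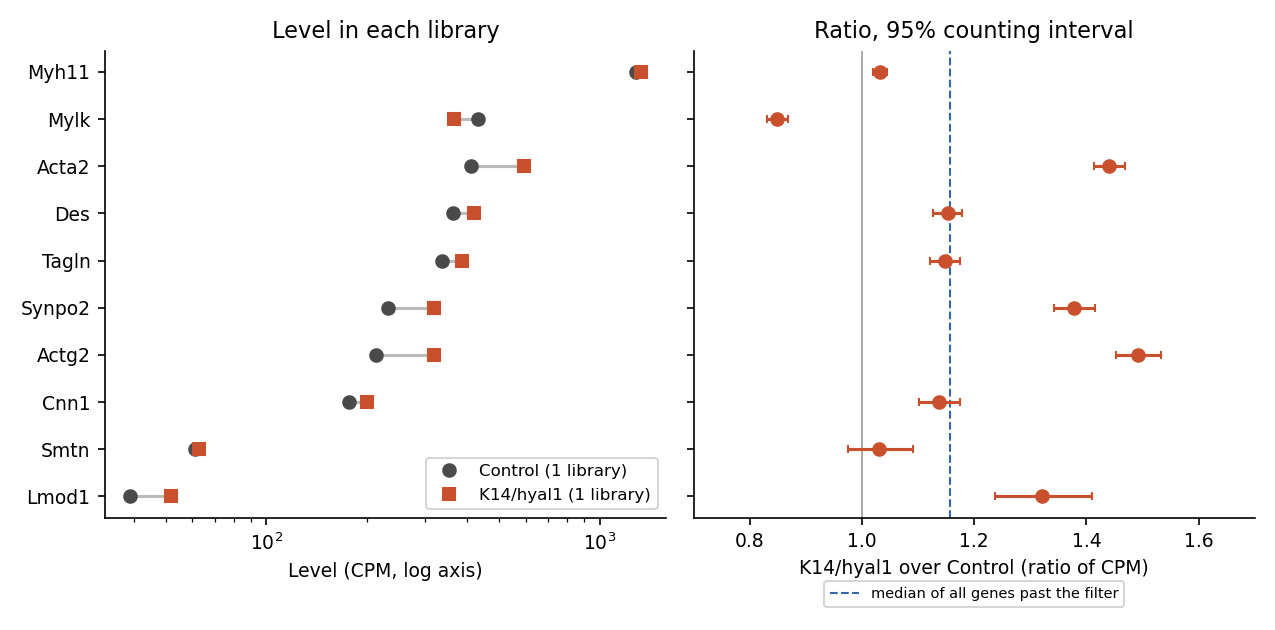
Left, level of each contractile gene (CPM, log axis) in the Control library (circles) and the K14/hyal1 library (squares). Right, ratio of K14/hyal1 to Control with its exact 95% counting interval, where the dashed line is the median of all genes past the filter: Acta2, Actg2, Synpo2 and Lmod1 lie to its right, and Mylk alone lies below 1.

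Read against all genes, the members as a list sat at the middle. On the scale log2((K14/hyal1 + 1)/(Control + 1)) in CPM, their median was 0.20, with a range from -0.24 (Mylk) to 0.58 (Actg2), and the median of the 13563 genes past the expression filter was 0.21. That filter was a mean of at least 2.31 CPM over both libraries, and all 10 members passed it. At 2-fold either way 0 of 10 members counted as different, where 5.29% of all genes past the filter did. At 1.5-fold, a threshold that Actg2 narrowly missed, the count was again 0 of 10, beside 22.6% of all genes past the filter and 22.8% of the 1743 genes at least as abundant as Lmod1, the least abundant member; among those 1743 genes, 6.37% were 2-fold different. Of the 10, 7 lay between the quartiles of all genes (-0.07 and 0.48). Actg2 and Acta2 lay above, with 81.8% and 78.4% of genes at lower values, and Mylk lay below, with 14.8% of genes at lower values. Scaling K14/hyal1 to the median gene lowers every log2 value by up to 0.23, which leaves Acta2, Actg2, Synpo2 and Lmod1 above 0 and puts the other 6 below 0, so the sign of Tagln, Cnn1, Des, Myh11 and Smtn is not fixed by these data.

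The authors' deposited gene table gives a false discovery rate for each gene, from a model that the sources used here do not describe. In the authors' deposited table Acta2 had 2.46e-06, Actg2 0.000640 and Synpo2 0.0127, all higher in K14/hyal1, and the other 7 members had values from 0.411 (Mylk) upwards. Thus 3 of 10 members were at or below 0.05 in the authors' deposited table, where 2.26% of its 15869 genes were. That share takes in genes of every level, while the members are abundant. No share was computed for genes as abundant as the members, so whether their count stands out was not tested. The total signal per gene in that table covers more libraries than the 2 analysed here. The means compared there do not: for Acta2 they were 594.274 and 412.437 CPM, the same as the levels in the 2 libraries here. Myh11 and Synpo2 also had the same values in both. Such means have no replicate behind them, so these false discovery rates cannot show how animals of a genotype vary. Without replicates of each genotype they were not checked.

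Per length, the actins, transgelin and myosin heavy chain stood at the head of the list. In CPM per kilobase of the longest protein-coding GENCODE transcript, the Control order was Tagln at 210 (208 to 213), Acta2 at 203 (200 to 205), Myh11 at 196 (195 to 198) and Actg2 at 161 (158 to 163). In K14/hyal1 Acta2 came first at 292 (288 to 296) CPM per kilobase, followed by Tagln at 242 (237 to 246) and Actg2 at 240 (235 to 245), which do not differ beyond counting error, and by Myh11 at 203 (201 to 205). The places of Tagln, Acta2 and Myh11 in Control also depend on the length used: over the union of all annotated exons Acta2 led with 188 CPM per kilobase, and Myh11 and Tagln both had 169. The remaining 6 kept one order in both libraries and by both lengths. Per kilobase of the longest transcript, Des had 120.1 and 138 CPM, Cnn1 74.2 and 84.4, Mylk 55.1 and 46.8, Synpo2 25.1 and 34.6, and Lmod1 9.91 and 13.1, in Control and K14/hyal1. Smtn, between Synpo2 and Lmod1 in this order, had an interval from 17.4 to 18.6 in Control and from 17.7 to 19.4 in K14/hyal1.

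**Figure D2:**
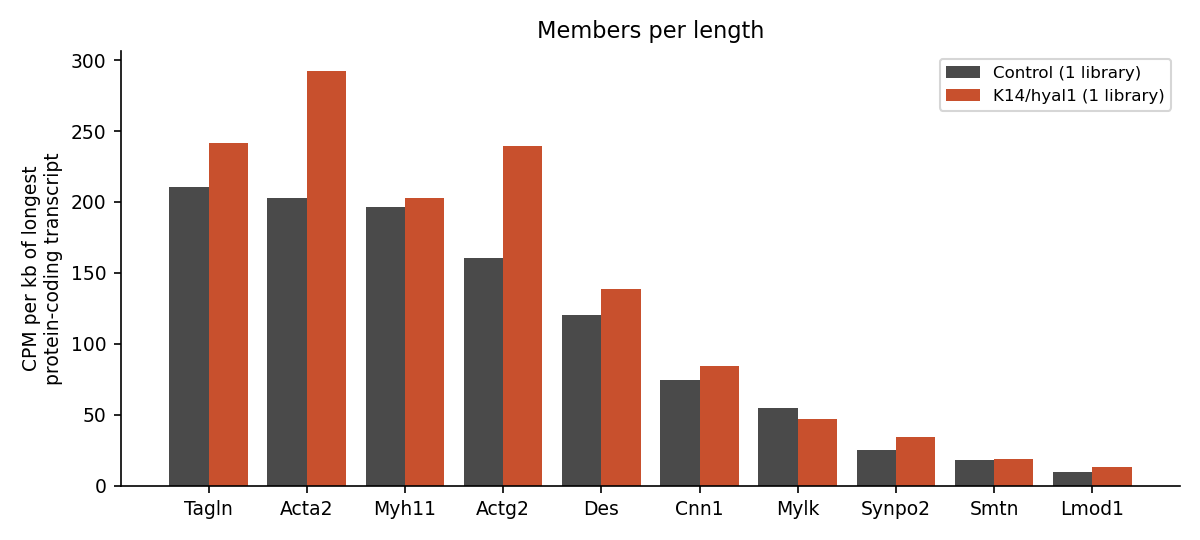
Level of each contractile gene per kilobase of its longest protein-coding transcript (CPM per kb, linear axis from 0) in Control (dark bars) and K14/hyal1 (red bars), 1 library each. Acta2 and Actg2 gain most in height, from 203 to 292 and from 161 to 240, while Myh11 is at 196 and 203 and Mylk is the only bar that is lower in K14/hyal1.

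Of the 10 genes, 5 had a single transcript row in the table, so their value is 1 deposited number. These were Acta2, Myh11, Tagln, Cnn1 and Lmod1. The others had 2 (Mylk), 3 (Des), 5 (Actg2), 7 (Synpo2) and 8 (Smtn) rows, which the table does not name by transcript. The row that held 84.3% of Actg2 in Control and 84.5% in K14/hyal1 had 180.4 and 270.0 CPM, with an interval of the ratio from 1.45 to 1.54. The other 4 Actg2 rows had ratios from 1.38 to 1.52, though the intervals of the third and the fifth, with few reads, held 1. The rows of Synpo2 were less alike. Its main row had 108 and 167 CPM, a ratio of 1.55 (1.49 to 1.60), and the third in file order had 26.3 and 72.6 CPM, a ratio of 2.76 (2.59 to 2.95). The fourth and the fifth were lower in K14/hyal1, from 34.4 to 23.7 CPM and from 36.1 to 25.1 CPM, with ratios of 0.690 (0.632 to 0.752) and 0.696 (0.638 to 0.756). The share of Synpo2 in the third was therefore 11.4% in Control and 22.8% in K14/hyal1. The sixth had 1 estimated read in Control and 49 in K14/hyal1, a ratio of 81.8 (17.7 to 4157).

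Smtn, level as a whole, held rows that differed in opposite directions. Its second row had 13.5 CPM and 18.8 CPM, a ratio of 1.39 (1.24 to 1.55), and the third 16.8 and 11.0 CPM, a ratio of 0.657 (0.577 to 0.745). The row with the largest share held 34.4% and 39.0% of the gene and had a ratio of 1.17 (1.07 to 1.28). In Mylk nearly all signal, 99.4% and 99.8%, lay in 1 row, and the other had 155 and 20 estimated reads. Of the row values, 36.3% and 37.5% were whole reads to within 0.1, against 81.6% and 82.9% of gene values. How reads that fit several transcripts were shared out is unknown here, and the intervals of rows do not cover it. On the strand opposite to Smtn the annotation has Gm11946 (27.3 and 24.2 CPM) and opposite to Tagln it has Pcsk7 (32.4 and 32.5 CPM). Use of strand in the authors' counting was not given in the sources used here, so reads of such pairs may not be separated. On the same strand, Synpo2 overlaps Gm43288 (3.49 and 4.55 CPM), Gm43283 (3.67 and 2.86 CPM) and Gm43287 (0.622 and 0.414 CPM), which strand would not tell apart from it.

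**Figure D3:**
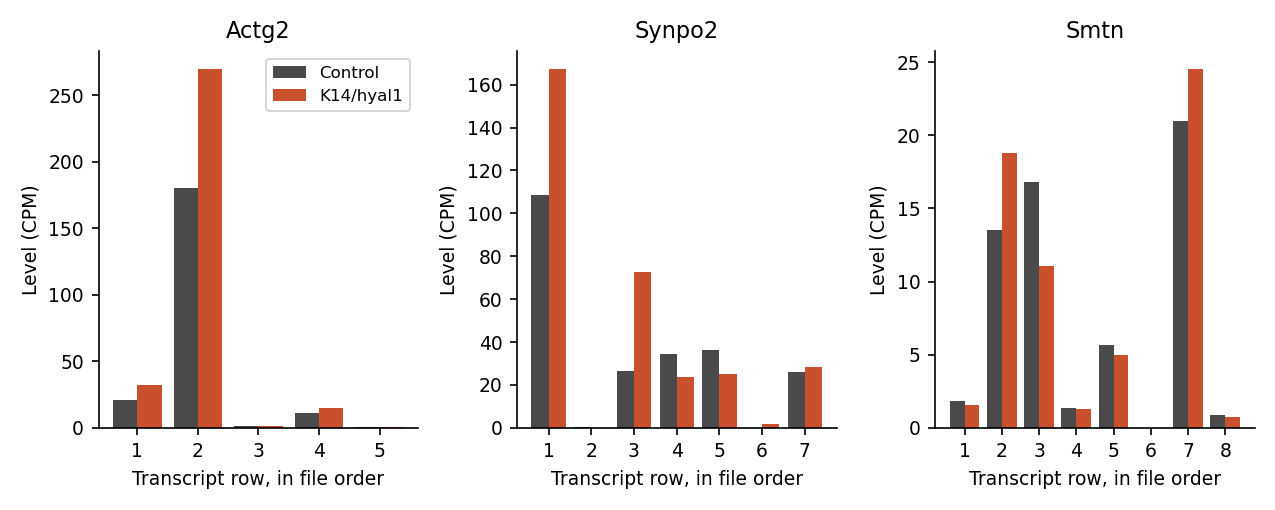
Level (CPM, linear axes from 0) of each transcript row of Actg2, Synpo2 and Smtn, numbered in file order, in Control (dark) and K14/hyal1 (red), 1 library each. All Actg2 rows are higher in K14/hyal1, while for Synpo2 the third is 2.76-fold higher and the fourth and the fifth are lower.

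The partners of the contractile filament had a median somewhat above that of the members. Of 11 thin filament and light chain genes 10 passed the filter, 0 of them 2-fold different, where 5.29% of all genes past the filter were. Their median log2 ratio was 0.37, against 0.20 for the members and 0.21 for all genes. Dstn, which encodes the actin-depolymerising protein destrin, was the most abundant, at 433 and 568 CPM in Control and K14/hyal1. The regulatory light chain gene Myl12a had the highest log2 ratio, 0.62 (39.2 and 61.0 CPM), and the supervillin gene Svil the lowest, -0.10 (73.5 and 68.5 CPM). Genes that control contraction gave a similar picture, with 11 of 12 past the filter and a median of 0.28. Of these 11, 0 were 2-fold different, beside the same 5.29%. The calmodulin gene Calm2 was highest at 0.66 (95.8 and 152 CPM) and the myosin phosphatase subunit gene Ppp1r12b lowest at -0.05 (143 and 138 CPM).

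Dense plaque and Z-body genes had a median of 0.37 over 20 genes, with 2 past 2-fold in the higher direction and 0 in the lower, where 3.75% of all genes past the filter were higher and 1.54% lower by this rule. The higher pair was Vim, the intermediate filament protein of mesenchymal cells (46.4 and 113 CPM, log2 ratio 1.27), and Ilk, the integrin-linked kinase (7.28 and 16.3 CPM, log2 ratio 1.06). Neither is particular to muscle, and fibroblast markers were higher in the same library, as given below; their part in these values was not tested. With K14/hyal1 scaled to the median gene, 1 gene of the list was past 2-fold. Flna, the actin cross-linker filamin A, was the most abundant of this list (903 and 1176 CPM, log2 ratio 0.38).

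Calcium handling genes, channels and receptors were spread over both directions, with a median of 0.10 over 14 genes, 8 above 0 and 6 below. Of all 13563 genes past the filter, 9436 were above 0 and 4127 below. Gucy1b3, a subunit of the guanylate cyclase that senses nitric oxide, was the only one of the 14 past 2-fold, where 5.29% of all genes past the filter were, with 4.47 and 10.1 CPM in Control and K14/hyal1 (log2 ratio 1.03), and it was within 2-fold after scaling to the median gene. The muscarinic receptor gene Chrm3 had the lowest value, -0.61 (4.73 and 2.76 CPM). Pde5a, which encodes a cGMP phosphodiesterase, was the most abundant over both libraries (111 and 150 CPM, log2 ratio 0.43).

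Regulators of the contractile program lay mostly below 0. Of the 10 SRF and myocardin regulators, 8 had a log2 ratio below 0 as the authors scaled the libraries. Of all 13563 genes past the filter, 4127 did. At 2-fold 0 of the 10 were different, where 5.29% of all genes past the filter were. The median was -0.22, against 0.20 for the contractile genes and 0.21 for all genes. Klf4, a repressor of contractile genes in smooth muscle that is also expressed in gut epithelium, was both the most abundant and the lowest, at 287 and 180 CPM in Control and K14/hyal1 (log2 ratio -0.67). The mesenchymal factor gene Hic1 was highest at 0.36 (5.56 and 7.44 CPM). Srf itself was at 24.4 and 28.7 CPM (0.23), its cofactor Myocd at 11.8 and 11.1 CPM (-0.08), and Mkl1, which encodes the related cofactor MRTF-A, at 21.3 and 13.1 CPM (-0.67). These last 3 were singled out after their values were seen.

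The CArG box was looked for on both strands of RefSeq promoter sequence (GRCm38.p6), which was matched for 7 members: Acta2, Cnn1, Des, Lmod1, Mylk, Smtn and Synpo2. In the 250 bases before each RefSeq start, 0 of 7 held the exact box, and 1.47% of all 32851 windows did. The RefSeq starts are not always the 5′ ends of the GENCODE genes. The windows lie wholly inside the GENCODE gene for Mylk (chr16:34784700-34784949) and Smtn (chr11:3539293-3539542), and partly inside it for Acta2, Cnn1 and Lmod1. With at most 1 G or C allowed among the central A and T bases, 1 of 7 held it, and 8.59% of all windows. That member was Acta2, whose matches are shown because this gene had the second largest ratio in the list; each is printed with 10 bases on either side, and capitals mark the match. They lie on the minus strand at chr19:34255438-34255467 and chr19:34255388-34255417, inside an annotated exon near the 5′ end of the GENCODE gene.
Acta2 first match: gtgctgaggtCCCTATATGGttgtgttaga
Acta2 second match: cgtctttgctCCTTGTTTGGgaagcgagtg
A match in letters is a description of the sequence; binding was not measured.

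The other actins and myosin heavy chains are close relatives of the members, and their values are on the authors' scaling. The cytoplasmic actin Actb was at 1742 and 1762 CPM, a ratio of 1.01, and Actg1 at 305 and 259 CPM, a ratio of 0.849 (0.826 to 0.872). The skeletal actin Acta1 had 8.84 and 9.51 CPM and the cardiac actin Actc1 0.867 and 0.965 CPM. Of the other myosin heavy chains, Myh9 had 462 and 449 CPM (log2 ratio -0.04), Myh14 244 and 225 CPM (-0.11) and Myh10 11.8 and 16.6 CPM (0.46).

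Levels of markers of the cell types around smooth muscle are given as descriptions; their 2-fold counts are on the log2 scale with 1 CPM added. Of 10 fibroblast markers, 8 were past 2-fold in the higher direction, where 3.75% of all genes past the filter were. Pi16 (1.85 and 11.2 CPM) and Mfap5 (1.55 and 7.17 CPM), both among the 8, were under the filter level in Control and passed through K14/hyal1. The collagen gene Col1a1 went the other way, with 42.0 and 28.7 CPM, a ratio of 0.684 (0.632 to 0.740). The summed fibroblast level was 436 and 1065 CPM, a ratio of 2.44 (2.40 to 2.48). Col3a1, a fibrillar collagen, was the most abundant in this list (158 and 425 CPM). The ratio of the summed contractile level to the summed fibroblast level was therefore 8.14 in Control and 3.80 in K14/hyal1, and its part in the values above was not tested. The 6 endothelial markers had summed levels of 27.7 and 55.0 CPM, led in abundance by Pecam1 (11.6 and 21.6 CPM). Of the 5 endothelial markers that passed the filter, 1 was past 2-fold in the higher direction with 1 CPM added, beside the same 3.75% of all genes. That was Tek, which had 2.21 and 8.44 CPM and passed the filter through K14/hyal1. With nothing added, Kdr (3.96 and 8.20 CPM) had a ratio of 2.07 (1.72 to 2.49). Emcn (1.18 and 2.83 CPM), with a ratio of 2.40 (1.73 to 3.34), did not pass the filter. The 6 immune markers had summed levels of 46.4 and 138 CPM, and Lyz2 was the most abundant of them (20.7 and 84.2 CPM). Of the 4 immune markers that passed the filter, 3 were past 2-fold in the higher direction, beside the same 3.75% of all genes. Among the 3 was Itgam (1.96 and 8.75 CPM), which passed the filter through K14/hyal1. Cd3e (0.0491 and 0.103 CPM) and Cd79a (1.28 and 1.14 CPM) did not pass it. These differences between lists are descriptions and were not tested.

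Of the mural cells of small vessels, 8 pericyte markers had summed levels of 166 and 210 CPM, and Rgs5 was the most abundant (72.7 and 92.2 CPM). None of the 7 past the filter reached 2-fold with 1 CPM added, where 5.29% of all genes past the filter did. With nothing added, Kcnj8 (4.40 and 9.72 CPM) had a ratio of 2.21 (1.86 to 2.62). Of the interstitial cells of Cajal, the pacemakers that lie among gut muscle, 3 markers were measured, with summed levels of 145 and 152 CPM. The chloride channel gene Ano1 made up most of these sums (124 and 131 CPM). Kit had 14.3 and 16.6 CPM, a ratio of 1.16 (1.04 to 1.30). Etv1 went the other way, with 6.89 and 4.41 CPM, a ratio of 0.640 (0.521 to 0.782). Cdh8 was also listed but had no value under that symbol. Neuron and glia markers had a ratio of sums of 0.895 (0.801 to 0.998), led by Ret (5.35 and 4.31 CPM), with 2 of 8 past the filter. Epithelial markers had a median of 0.02 over 8 genes, from -0.76 (Krt20) to 0.53 (Krt18). They had 4 above 0 and 4 below, beside the counts over all genes given above for the pericyte markers. They summed to 2845 and 2988 CPM, led by Krt8 (952 and 1062 CPM), so both libraries held much epithelial RNA. Striated muscle markers summed to 19.3 and 22.0 CPM, with 2 of 10 past the filter and Tnnt2 the most abundant in Control (8.97 and 9.07 CPM). No marker measured was at 0 in either library. All 10 smooth muscle markers were thus present in material labelled as lamina propria, Des and Actg2 among them.

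**Figure D4:**
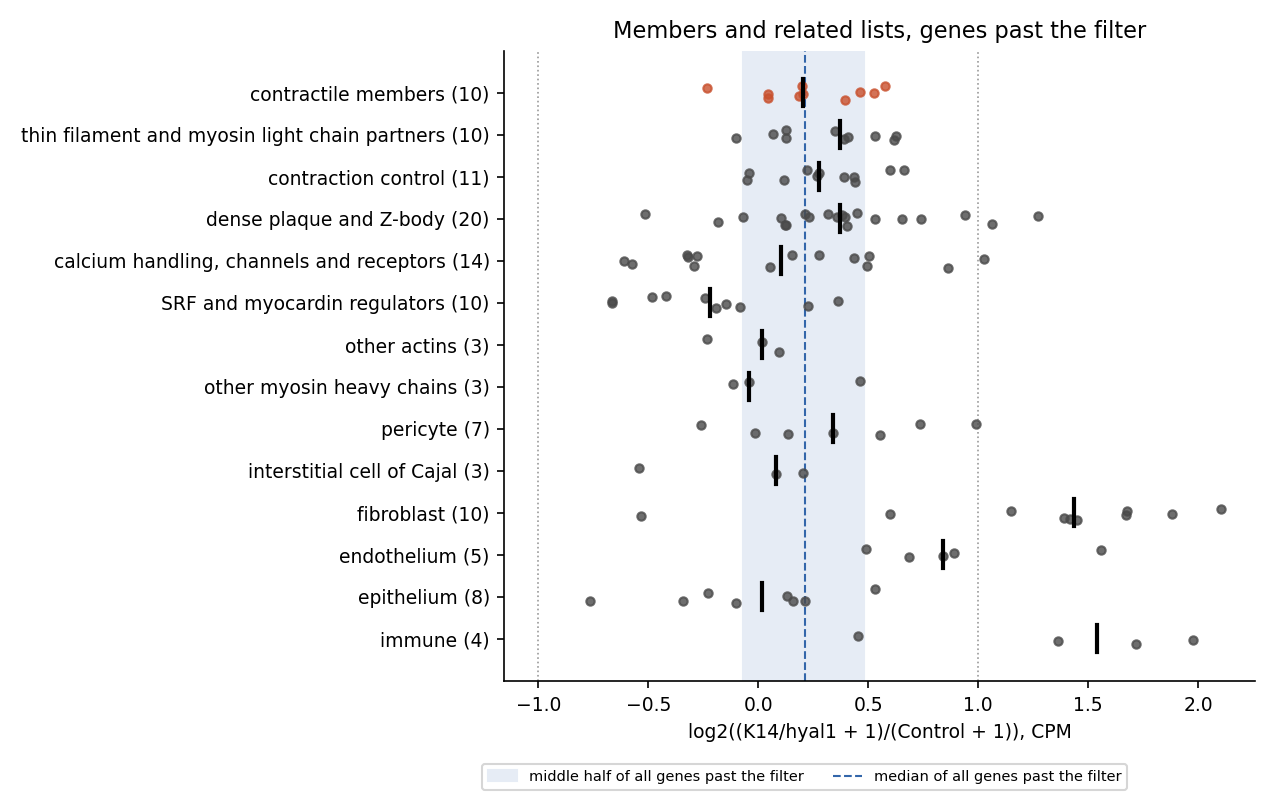
Difference between the libraries, log2((K14/hyal1 + 1)/(Control + 1)) in CPM, for each gene past the filter in the contractile list (red) and in related and marker lists (dark), with the number of genes in brackets and the list median as a black bar. The shaded band and the dashed line are the quartiles and the median of all 13563 genes past the filter, and dotted lines mark 2-fold: the contractile genes lie around the dashed line, while 8 of 10 fibroblast genes lie beyond 2-fold.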

How the data were processed

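Values came from a table the authors deposited, with 72178 transcript rows for 27874 symbols. Its header names no unit. The deposited values were read as CPM, since low values are multiples of 1 step per library, and the sums per symbol of the members are close to the least-squares mean CPM of the authors' gene table; Smtn in Control, the furthest apart, had 60.98 and 61.02 CPM. That deposited table also holds a ratio, a signed fold-change score, p-values and false discovery rates, and a total signal that was not used. Per the submitters' processing notes, Partek and mm10 were used; per the labels' protocols, RNA came from a PureLink RNA Mini Kit and libraries from a TruSeq Stranded mRNA kit. Aligner, counting rule and use of strand were not given in the sources used here.

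An offset of 0.0001 was taken off each row and rows were summed by symbol. Reads were estimated as CPM divided by the step (0.0164 in Control, 0.0345 in K14/hyal1); as they were often not whole, no count test was run. Intervals are exact Poisson (levels) and Clopper-Pearson (ratios) at 95%. The filter of 2.31 CPM is the median of symbols above 0. Named genes were all members and, per related list, the highest, the lowest, those past 2-fold and the most abundant; per marker list the most abundant in Control; some genes that the rule names are not reported here. Members and lists were chosen with earlier results of these data known. Steps were checked on simulated data. Alternatives were other pseudocounts, thresholds, scalings and tables. A table headed mm10 transcriptome and a skin sheet were not used. The software was scipy 1.17.1, pandas 2.3.3 and numpy 2.4.6 under Python 3.11.15, with plots from matplotlib 3.10.9.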

Additional observations from a re-analysis of the deposited data

How the results depend on the processing

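The count of members at 2-fold was 0 in every alternative run, including thresholds of 1.5- and 4-fold and no filter. Their median log2 ratio of 0.20 was -0.032 after scaling to the median gene, 0.011 after TMM scaling and 0.037 with totals taken without the 20 most abundant genes; the mean over members was 0.24. Under each of these 3 scalings all 10 members moved by more than their counting interval, and 4, 6 and 7 were above 0. With a pseudocount of 10 CPM the median of all genes was 0.11 and 7 members lay above it, against 4 with 1 CPM. Scaling to the median gene gave list medians of 0.14 (thin filament), 0.048 (contraction control), 0.15 (dense plaque), -0.13 (calcium handling), -0.45 (SRF and myocardin), -0.22 (other actins), -0.28 (other myosins), -0.019 (striated), 0.11 (pericyte), -0.15 (Cajal), 1.20 (fibroblast), -0.22 (epithelium), 0.62 (endothelium) and 1.32 (immune), and 2-fold counts of 1 (dense plaque), 0 (calcium handling) and 7 (fibroblast). Without a filter the medians were 0.045 (other actins), 0.24 (pericyte) and 0.91 (immune). The most abundant row alone moved 2 of 10 members. No paired analysis was possible because each genotype has 1 library, and for the same reason none could be left out. Depth limits rows of few reads, such as the sixth of Synpo2, which rests on 1 and 49 estimated reads.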
